A study of Rattus norvegicus with 3 samples.

Results

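Osteoblast lineage and mineralization genes were read in rat osteosarcoma, malignant fibrous histiocytoma (MFH) and mesenchymal stem cells (MSCs). The group holds 10 genes, namely Runx2, Sp7, Alpl, Bglap, Ibsp, Spp1, Phex, Dmp1, Mepe and Pth1r, which are known for their roles in bone and were chosen with earlier results of these data known. A probe was named for 9 of the 10, out of 13345 genes with a named probe. Runx2 had no probe named through its RefSeq accession and is not reported. Each of the other genes was read by a single probe, so no second probe could be set beside it.

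COS1NR is an osteosarcoma cell line and MFH1NR an MFH cell line, both established from tumors that 4-HAQO, a chemical carcinogen, had induced in F344 rats, and both are described by the study's methods as carrying a p53 mutation. The MSCs were taken from femur bone marrow of F344 rats by growth on plastic, were not sorted by surface markers, and were kept in the same medium with more serum. The ages of the rats are not given in the sources used here. All cells thus share the F344 strain. RNA of each was hybridized to 1 Agilent whole rat genome array, so that each line stands for 1 tumor and 1 culture. With no second culture of any cell type, the differences below have no replicate check and no test.

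Bone is made by osteoblasts, which arise from mesenchymal progenitors under the transcription factors RUNX2 and osterix (Sp7). Osteoblasts lay down collagen I and noncollagenous matrix proteins, and their alkaline phosphatase removes the mineralization inhibitor pyrophosphate. Cells that become buried in the matrix turn into osteocytes, which control phosphate and mineral through Phex, Dmp1 and Mepe. Osteopontin (Spp1), bone sialoprotein (Ibsp), Dmp1 and Mepe belong to the SIBLING family of secreted acidic glycoproteins, whose genes lie side by side.

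Promoters were available in RefSeq for 8 of the 10 genes, in build GRCr8, as windows of 300 bases that run from 250 bases before to 50 bases after the annotated start. Those of Bglap, Ibsp, Spp1 and Mepe are shown as 4 of the genes that differed between cell types, which other members, such as Pth1r, also did. Capitals mark TGTGGT on either strand (written ACCACA when it lies on the other one), a form of the core of RUNX sites. Also in capitals is TATAAA on either strand (written TTTATA when it lies on the other one). Other forms of the RUNX core were not searched. No match shared a base with another. The windows are chr2:176137269-176137568 for Bglap, chr14:5757193-5757492 for Ibsp, chr14:5619755-5620054 for Spp1 and chr14:5736809-5737108 for Mepe, all on the minus strand and printed 5′ to 3′.
Bglap: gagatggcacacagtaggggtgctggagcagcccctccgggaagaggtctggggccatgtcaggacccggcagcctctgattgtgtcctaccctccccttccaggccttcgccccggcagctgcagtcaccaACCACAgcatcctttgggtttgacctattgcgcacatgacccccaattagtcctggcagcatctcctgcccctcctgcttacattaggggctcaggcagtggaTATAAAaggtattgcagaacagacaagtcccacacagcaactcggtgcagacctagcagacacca
Ibsp: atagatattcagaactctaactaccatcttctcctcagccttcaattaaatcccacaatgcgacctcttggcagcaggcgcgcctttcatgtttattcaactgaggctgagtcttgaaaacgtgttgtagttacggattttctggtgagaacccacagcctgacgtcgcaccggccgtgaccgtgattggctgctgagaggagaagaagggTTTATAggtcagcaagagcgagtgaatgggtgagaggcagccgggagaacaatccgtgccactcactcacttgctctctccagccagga
Spp1: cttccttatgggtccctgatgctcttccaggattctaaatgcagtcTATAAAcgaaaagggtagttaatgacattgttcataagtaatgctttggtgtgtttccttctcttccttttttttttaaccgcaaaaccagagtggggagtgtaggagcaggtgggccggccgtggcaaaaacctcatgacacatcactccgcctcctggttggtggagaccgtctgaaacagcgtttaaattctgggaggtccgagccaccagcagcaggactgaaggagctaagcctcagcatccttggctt
Mepe: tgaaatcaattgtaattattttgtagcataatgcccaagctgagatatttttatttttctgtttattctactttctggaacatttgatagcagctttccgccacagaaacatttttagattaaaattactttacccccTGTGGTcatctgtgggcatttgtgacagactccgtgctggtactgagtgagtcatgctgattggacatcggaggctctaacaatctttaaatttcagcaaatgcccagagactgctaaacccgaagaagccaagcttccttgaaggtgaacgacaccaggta
TGTGGT was found in Bglap, starting 118 bases upstream of the annotated start, and in Mepe, starting 112 bases upstream. This form was not found in the windows of Ibsp and Spp1, which may hold other forms of the RUNX core. TATAAA was found 15 bases upstream in Bglap and 204 bases upstream in Spp1, and in the inverted form 39 bases upstream in Ibsp. Of 33469 rat promoter windows of the same length, 17.3% held TGTGGT and 14.2% held TATAAA. A match in a window is a description of its letters and was set against no binding data.

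The processed intensity of each spot was divided by the 75th percentile of its array, which was 589 (MSCs), 774 (COS1NR) and 994 (MFH1NR). Ratios between cell types were taken after this scaling, and a gene was counted as higher or lower when its ratio was at least 2-fold. Where the scanner software did not call a probe well above background on 1 of the 2 arrays, only a bound is given ("at least N-fold"), which sets the brighter value against the lowest value well above background on the dim array, or against the dim probe's reading where that is higher. Where neither array was well above background, no ratio is given. The error given with a log2 ratio is that of the software's own model of spot noise on the 2 arrays, and covers neither cultures nor labeling. For genes with 2 probes well above background, the second probe differed from the first by more than 0.93 in log2 for 1 gene in 10 between COS1NR and MSCs (1983 genes), by more than 1.01 between MFH1NR and MSCs (1984 genes) and by more than 0.60 between the sarcomas (1939 genes). The file headers give the sarcoma arrays the same scan and the MSC array another, so whenever MSCs are compared, scan and cell type cannot be told apart, and only COS1NR and MFH1NR can be compared within a scan. In bulk RNA, fewer cells of a type and less RNA per cell cannot be told apart.

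**Figure D1:**
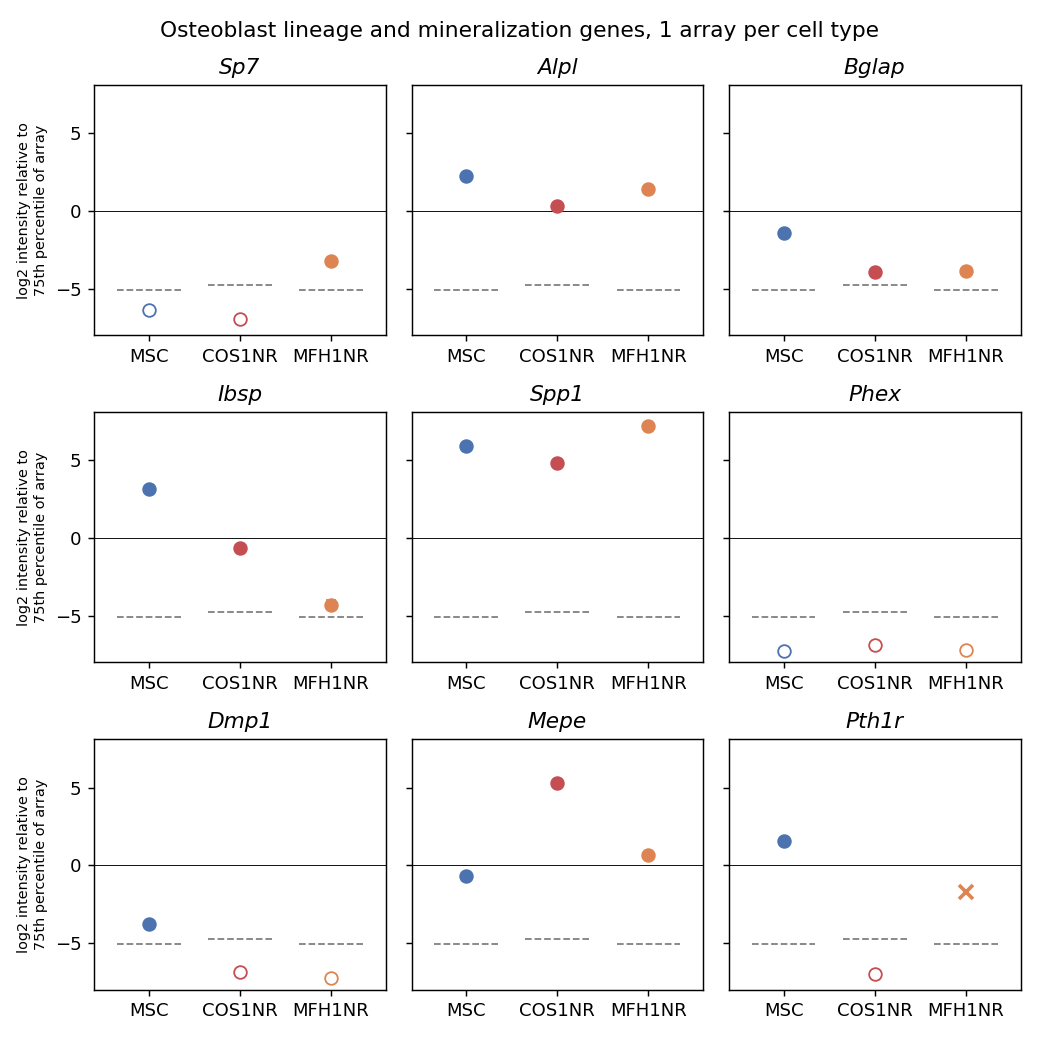
Intensity of 9 osteoblast and mineralization genes on each array (log2, relative to the 75th percentile of that array), with the software's error as bars, most of them smaller than the points. Filled circles are well above background, open circles are not, the cross is a spot called an outlier by the software, and dashed lines are the lowest value well above background on each array. Mepe is highest in COS1NR, Spp1 and Sp7 in MFH1NR, and Alpl, Bglap, Ibsp, Dmp1 and Pth1r in MSCs. Levels of different genes cannot be set against each other.

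Against MSCs, COS1NR was higher in Mepe and lower in 5 members, Alpl, Bglap, Ibsp, Spp1 and Pth1r. Of the 10 genes, 5 had a ratio measured on both arrays, 2 had a bound, Sp7 and Phex were not well above background on either array, and Runx2 had no named probe. Over all 9715 genes with a ratio or a bound, COS1NR was higher in 20.6% and lower in 20.0%. The members' median log2 ratio, with bounds counted at their value, was -1.89, against 0.11 over all these genes.

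MFH1NR was higher than MSCs in 3 members, Sp7, Spp1 and Mepe, and lower in 3, Bglap, Ibsp and Dmp1. Alpl was within 2-fold, Phex was not well above background on either array, and the spot of Pth1r in MFH1NR was called an outlier, so no ratio was taken. Over all 9824 genes with a ratio or a bound, MFH1NR was higher in 19.3% and lower in 21.6%. The members' median log2 ratio was -0.84, against 0.02 over all genes. Both comparisons use the same MSC array, so a gene that stands apart in MSCs alone counts in both.

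Between the sarcomas, on the shared scan, COS1NR was higher than MFH1NR in Ibsp and Mepe and lower in Sp7, Alpl and Spp1. Bglap was within 2-fold, Phex and Dmp1 were not well above background in either line, and Pth1r gave no ratio. Over all 9424 genes with a ratio or a bound, 15.0% were higher and 12.4% lower in COS1NR. The members' median log2 ratio was -0.57, against 0.09 over all genes.

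**Figure D2:**
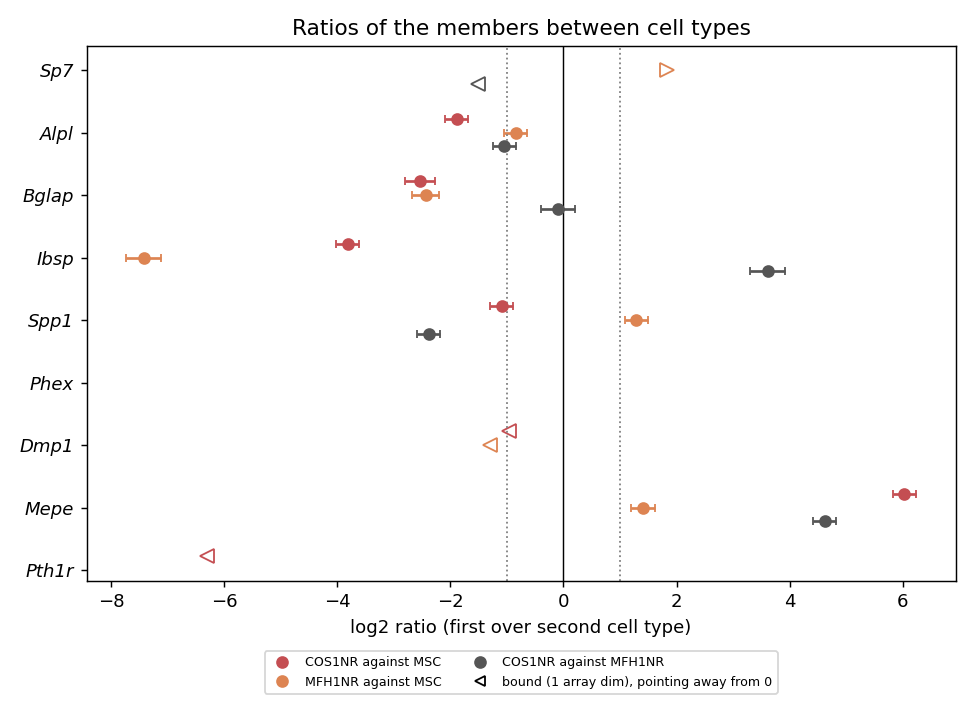
Log2 ratios of the members for COS1NR against MSCs, MFH1NR against MSCs and COS1NR against MFH1NR. Circles are measured ratios with the software's error, open triangles are bounds that point to larger differences, and dotted lines mark 2-fold. Mepe lies at 6.03 and Ibsp at -3.82 in COS1NR against MSCs, and Ibsp at -7.43 in MFH1NR against MSCs.

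Sp7 encodes osterix, a transcription factor required for osteoblasts to form. Its spot read 7.26 in MSCs, 6.34 in COS1NR and 108 in MFH1NR. Of the 3 arrays it was well above background on that of MFH1NR alone, and that line lay above MSCs by at least 3.58-fold and above COS1NR by at least 2.86-fold. With a normexp background correction neither bound reached 2-fold. The log2 value was then 0.67 for MFH1NR against MSCs and -0.9999, at the threshold, for COS1NR against MFH1NR.

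Alpl encodes tissue-nonspecific alkaline phosphatase, the enzyme that makes phosphate available for mineral. MSCs read 2780, COS1NR 986 and MFH1NR 2617. It was 3.70-fold lower in COS1NR than in MSCs (log2 ratio -1.89 ± 0.20, software error) and 2.07-fold lower than in MFH1NR (-1.05 ± 0.20, or -1.84 with spike-in scaling). In MFH1NR the log2 ratio to MSCs was -0.84, and it was -0.09 without scaling between arrays. MSCs and MFH1NR were thus within 2-fold of each other and COS1NR was the lowest.

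Pth1r encodes the receptor for parathyroid hormone and for its related peptide on osteoblasts. MSCs read 1768. COS1NR read 6.22, not well above background, which put it at least 79.0-fold below MSCs (log2 bound -6.30, or -5.07 with normexp). In MFH1NR the spot had an intensity of 301 and was called non-uniform. With that spot kept, a choice made after the data were seen, MFH1NR had a log2 ratio to MSCs of -3.31.

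Bglap encodes osteocalcin, a small protein of the mineralized matrix and a textbook product of mature osteoblasts and target of RUNX2. MSCs read 223, COS1NR 50.5 and MFH1NR 69.5. It was 5.80-fold lower in COS1NR (log2 ratio -2.54 ± 0.27) and 5.41-fold lower in MFH1NR (-2.44 ± 0.24) than in MSCs. With normexp these log2 ratios were -1.67 and -1.73, and for MFH1NR the ratio was -1.68 without scaling. The sarcomas were close to each other, with a log2 ratio of COS1NR to MFH1NR of -0.10 ± 0.29, smaller than its error. The sign of that ratio turned with the normexp correction, to 0.05.

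Ibsp encodes bone sialoprotein, which binds collagen and hydroxyapatite and is made by cells that mineralize. The readings were 5269 (MSCs), 491 (COS1NR) and 51.7 (MFH1NR). It was 14.1-fold lower in COS1NR (log2 ratio -3.82 ± 0.21) and 172-fold lower in MFH1NR (-7.43 ± 0.31) than in MSCs, and 12.2-fold higher in COS1NR than in MFH1NR. With normexp the log2 ratio was -6.20 for MFH1NR against MSCs and 2.36 for COS1NR against MFH1NR, without scaling the former was -6.67, and with spike-in scaling the latter was 2.82. MSCs were the highest and MFH1NR the lowest under all of these settings. Among 8310 genes with a ratio measured on both arrays, 24 had a lower ratio than Ibsp in MFH1NR against MSCs. This rank leaves out genes with only a bound, some of which lay past Ibsp, such as Postn (at least 917-fold) and Fam20c (at least 1129-fold).

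Spp1 encodes osteopontin, which is made by osteoblasts and also by macrophages and osteoclasts. Its probe was printed 10 times, and the 10 spots used in MSCs ranged from 31242 to 39758 (mean 36180). The 9 spots used in COS1NR ranged from 21424 to 23198 (mean 22285) and the 9 in MFH1NR from 144109 to 153240 (mean 149222). The spots of each array lay apart from those of the others, which bears on the noise of the arrays and not on the spread between cultures. The SD of log2 intensity over these spots, which are repeats on the same array, was 0.10 (MSCs), 0.04 (COS1NR) and 0.03 (MFH1NR). After scaling, it was 2.44-fold higher in MFH1NR than in MSCs (log2 ratio 1.29, or 2.04 without scaling) and 5.21-fold higher than in COS1NR (log2 ratio of COS1NR to MFH1NR -2.38, or -3.17 with spike-in scaling). In COS1NR it was 2.13-fold lower than in MSCs (-1.09), a difference that was under 2-fold without scaling (-0.70), with median scaling (-0.93) and with quantile normalization (-0.95).

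Mepe encodes matrix extracellular phosphoglycoprotein, an osteocyte protein that releases a peptide inhibiting mineralization. MSCs read 362, MFH1NR 1617 and COS1NR 31057. It was 65.4-fold higher in COS1NR than in MSCs (log2 ratio 6.03 ± 0.20) and 24.7-fold higher than in MFH1NR (4.63 ± 0.20, or 3.83 with spike-in scaling). MFH1NR was 2.65-fold above MSCs (1.41 ± 0.20, or 2.16 without scaling). Of 8304 genes with a ratio measured on both arrays, 6 had a higher ratio than Mepe in COS1NR against MSCs. Of 8179 such genes 43 had a higher one in COS1NR against MFH1NR. Genes with only a bound were left out of both ranks.

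Dmp1 encodes dentin matrix protein 1, an osteocyte product that nucleates mineral. MSCs read 43.7, while COS1NR at 6.81 and MFH1NR at 6.77 were not well above background. The bounds were at least 1.95-fold lower for COS1NR and 2.45-fold lower for MFH1NR, and the latter was under 2-fold without scaling (log2 -0.54) and with spike-in scaling (-0.78). The bound for COS1NR was past 2-fold with spike-in scaling (-1.24). Phex, an osteocyte endopeptidase whose loss causes X-linked hypophosphatemia, had intensities of 3.88, 6.67 and 6.75 in MSCs, COS1NR and MFH1NR and was not well above background in any of them. The defining osteocyte genes were thus above background in COS1NR for Mepe and not for Dmp1 and Phex.

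The 4 measured SIBLING genes lie next to each other on chromosome 14 of build GRCr8 in the order Spp1, Mepe, Ibsp and Dmp1, with no other protein-coding gene annotated between them. The promoter windows of Mepe and Ibsp, which differed in opposite directions between COS1NR and MSCs, are 20084 bases apart. Spp1, on the other side of Mepe, was lower in COS1NR than in MSCs, as Ibsp was, and higher in MFH1NR, as Mepe was. Dspp, the next SIBLING gene along, was not well above background in any cell type. Sparcl1, the gene after it, was dim in both lines, with log2 bounds against MSCs of -1.41 in COS1NR (-0.98 with normexp) and -1.74 in MFH1NR (-0.98 without scaling). Nudt9, farther along, was higher in both lines, with log2 ratios of 1.41 in COS1NR and 1.38 in MFH1NR. The 3 genes around the cluster with no named probe (Thoc2l, Pkd2 and Scpppq1) were not read.

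**Figure D3:**
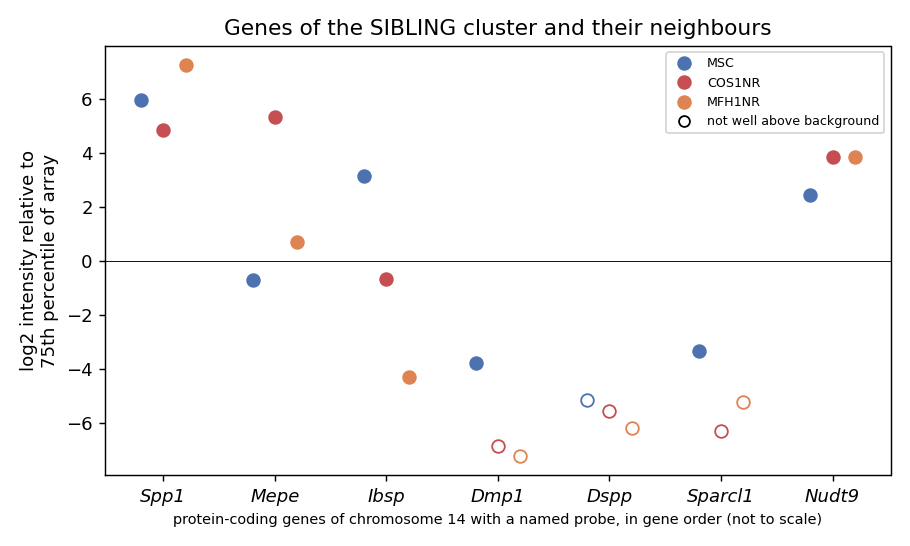
Intensity (log2, relative to the 75th percentile of each array) of the SIBLING genes and their neighbours on chromosome 14 with a named probe, in gene order and not to scale. Open circles are not well above background. COS1NR is the highest of the 3 arrays for Mepe and the lowest for Spp1, and the arrays are to be compared within a gene only.

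Beside the members, 50 other genes of bone formation in 5 lists were read, and 47 had a named probe. In COS1NR against MSCs, 39 had a ratio or a bound, of which 26 were lower and 4 higher, with a median log2 ratio of -1.80. In MFH1NR against MSCs, 38 had a ratio or a bound, of which 21 were lower and 3 higher, with a median of -1.18. Of 38 with a ratio or a bound in both comparisons, 20 were lower in both lines, where 13.6% of all genes with both were. These comparisons share the MSC array, and over all genes 20.0% were lower in COS1NR and 21.6% in MFH1NR. The lists were chosen with earlier results of these arrays known. Between the sarcomas, 30 had a ratio or a bound, with 6 higher and 12 lower in COS1NR, where 15.0% and 12.4% of all genes were. Of the listed genes lower than in MSCs, 11 in COS1NR and 8 in MFH1NR were well above background on all 3 arrays. Of all 7926 genes well above background on all 3, 1194 were lower in COS1NR and 1281 in MFH1NR.

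Among 10 other transcription factors of bone, COS1NR had 5 lower and 1 higher than MSCs, and MFH1NR 4 lower and 2 higher. Over all genes, 20.0% were lower and 20.6% higher in COS1NR, and 21.6% lower and 19.3% higher in MFH1NR. The counts higher are thus near those shares. Dlx5, a homeobox factor that acts upstream of osterix, read 1443 in MSCs. COS1NR, not well above background, was at least 64.5-fold lower, and MFH1NR 25.6-fold lower. For Msx2, a related homeobox factor, both lines were dim, by at least 23.1-fold (COS1NR) and 29.0-fold (MFH1NR). Zfp521, a zinc finger protein that antagonizes RUNX2, was lower by at least 17.6-fold in COS1NR and, measured on both arrays, by 6.60-fold in MFH1NR. Dlx3, of the same family as Dlx5, was lower by at least 5.73-fold and 7.20-fold. Twist1, which restrains RUNX2, was the only factor of the list higher in both lines than in MSCs, 3.45-fold in COS1NR and 2.53-fold in MFH1NR, with log2 ratios of 1.52 and 1.17 by its second probe. Fosl2, a factor of the AP-1 family, was 4.46-fold higher in MFH1NR than in MSCs and within 2-fold in COS1NR, with a log2 ratio of 0.83 that was 1.22 without scaling. Cbfb, the partner subunit of RUNX2, was within 2-fold of MSCs in both lines, except in MFH1NR without scaling (log2 ratio 1.47) and with spike-in scaling (1.23).

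None of 8 bone matrix genes with a ratio or a bound was higher than in MSCs in either line. In COS1NR 7 were lower and in MFH1NR 6, where 20.0% and 21.6% of all genes were. Postn, a matricellular protein of periosteum, was lower by at least 730-fold in COS1NR and 917-fold in MFH1NR. Mgp, an inhibitor of calcification, was lower by at least 416-fold and 523-fold. Neither was well above background in either line. Clec11a, a secreted osteogenic factor, was at least 28.3-fold and 35.5-fold lower. Col1a2, the α2 chain of collagen I, was 544-fold lower in COS1NR than in MSCs and 276-fold lower than in MFH1NR, from readings of 110949 in MSCs, 268 in COS1NR and 94925 for MFH1NR. Its second probe gave a log2 ratio to MSCs of -12.57 in COS1NR and of -4.56 in MFH1NR, where the first gave -0.98. Col1a1, the α1 chain, gave log2 ratios to MSCs of -0.33 (COS1NR) and -0.38 (MFH1NR) by the probe used here and of -3.69 and -3.35 by the other, so the probes disagree on its size against MSCs. Between the sarcomas, the probes of each chain were closer, with log2 ratios of COS1NR to MFH1NR of -8.11 and -8.01 for Col1a2 and of 0.05 and -0.34 for Col1a1.

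Of 10 phosphate and mineral genes, 7 had a ratio or a bound, and 5 of these (Enpp1, Ankh, Slc20a1, Smpd3 and Fam20c) were lower than in MSCs in both lines. Over all genes, 13.6% were lower in both. Enpp1, which makes pyrophosphate, was 18.1-fold lower in COS1NR and 2.37-fold lower in MFH1NR, the latter under 2-fold without scaling and with spike-in scaling. Ankh, which exports it, was 21.8-fold and 3.21-fold lower, the latter under 2-fold without scaling. Fam20c, the kinase that phosphorylates SIBLING proteins, read 20125 in MSCs, 6644 in COS1NR and 8.23 in MFH1NR. COS1NR was 3.98-fold below MSCs, and MFH1NR, not well above background, at least 1129-fold. Smpd3, a sphingomyelinase needed for mineral, was at least 4.40-fold and 5.52-fold lower. Phospho1, a phosphatase of matrix vesicles that was named after its value was seen, was at least 4.18-fold higher in COS1NR than in MSCs and 3.25-fold higher than in MFH1NR. With normexp its log2 values were 0.83 and 0.98, and against MFH1NR it was 0.91 with spike-in scaling. Galnt3, Ahsg and Fgf23 were not well above background on any array.

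Of the surface and paracrine genes, 6 of 8 with a ratio or a bound were lower in COS1NR than in MSCs, and 3 of 7 were lower in MFH1NR. The shares over all genes were 20.0% and 21.6%. Pdpn, a membrane glycoprotein of early osteocytes, read 1653 in MSCs, 3530 in MFH1NR and 6.37 in COS1NR. COS1NR was thus at least 73.9-fold below MSCs, and MFH1NR was within 2-fold of them after scaling, and past it without. Cdh11, the osteoblast cadherin, was at least 36.6-fold lower in COS1NR, where none of its 4 probes was well above background. In MFH1NR the log2 ratio to MSCs was -0.89, and by its other probes -0.98, -1.03 and -1.19. Gja1, the gap junction protein that links osteocytes, was 2.54-fold lower in COS1NR (under 2-fold without scaling) and 6.73-fold lower in MFH1NR. Lifr, a receptor for leukemia inhibitory factor, was at least 4.48-fold higher in COS1NR than in MSCs (under 2-fold with normexp), and was not well above background elsewhere. Sost, an osteocyte product, was not well above background on any array.

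Of the hormone response genes, 6 had a ratio or a bound against MSCs in each line, of which 3 were lower and 1 was higher. Over all genes, 20.0% were lower and 20.6% higher in COS1NR, and 21.6% lower and 19.3% higher in MFH1NR. Pthlh, a ligand of the Pth1r receptor, read 996 in MSCs, 1271 in MFH1NR and 221 in COS1NR, which was 5.91-fold below MSCs. COS1NR was thus the lowest of the 3 for the ligand. Nr3c1, the glucocorticoid receptor, was 4.59-fold higher in COS1NR and 2.70-fold higher in MFH1NR than in MSCs, and its second probe gave larger log2 ratios of 3.46 and 2.72. Crem, a factor induced by cyclic AMP, was 4.48-fold and 2.15-fold lower by the probe used here, while its other probes gave -1.21 and -1.40 in log2 for COS1NR, with -0.22 and -0.51 for MFH1NR, and 6 of the other settings left MFH1NR under 2-fold. Ghr, the growth hormone receptor, was 2.02-fold lower in MFH1NR, which 6 of the other settings put under 2-fold, and 3.69-fold higher in COS1NR than in MFH1NR, where its second probe, dim in MFH1NR, gave a log2 bound of 0.74.

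**Figure D4:**
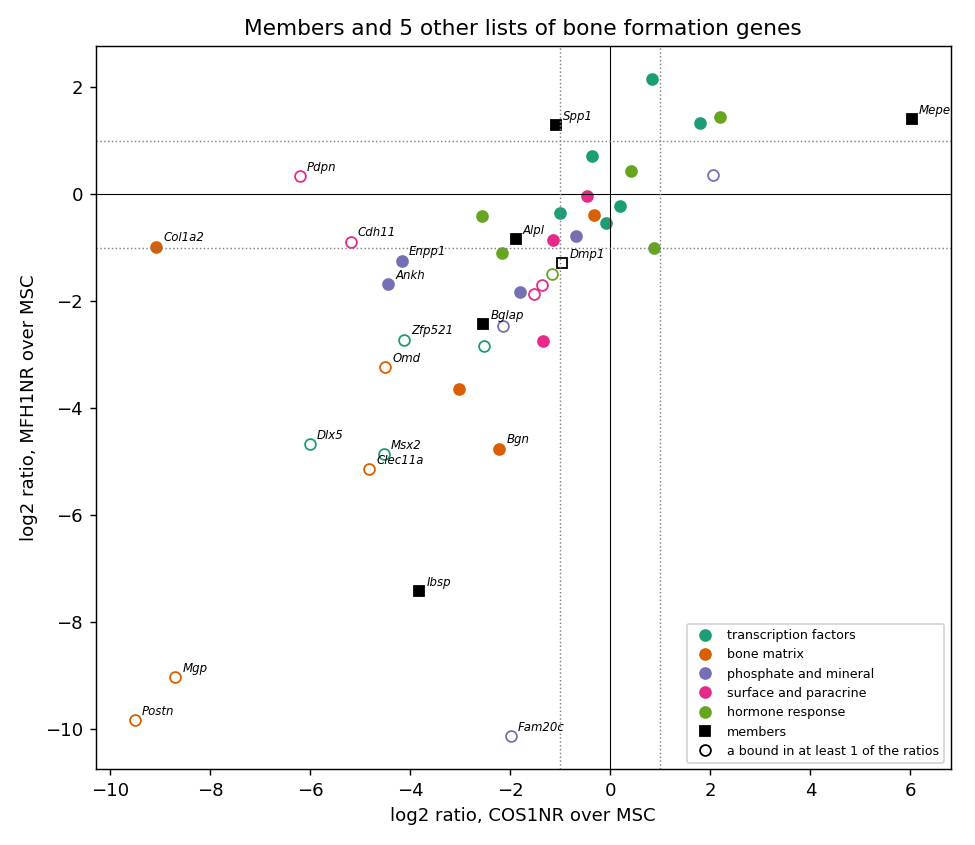
Log2 ratios to MSCs of the members (squares) and of 5 other lists of bone formation genes (circles), COS1NR on the x axis and MFH1NR on the y axis. Open symbols have a bound in at least 1 of the ratios, and dotted lines mark 2-fold. Most genes lie in the lower left, Mepe lies far to the right at 6.03, and Col1a2, Pdpn and Cdh11 lie far left at a y value above -1.

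The MSC culture also carried markers of blood-derived cells. All 10 macrophage markers were well above background in MSCs, while COS1NR had 5 and MFH1NR 4. Of all spots, 59.7% (MSCs), 56.6% (COS1NR) and 58.2% (MFH1NR) were. The summed level of the macrophage markers relative to the 75th percentile was 155 for MSCs, 8.94 for COS1NR and 4.25 for MFH1NR. Among the macrophage markers, Lyz2 was lower by at least 1444-fold in COS1NR and 1813-fold in MFH1NR, and C1qa by at least 244-fold and 306-fold. Tyrobp was 311-fold and 328-fold lower, and Aif1 18.7-fold and at least 177-fold lower, in the same order. Of 6 osteoclast markers with a named probe, 5 were well above background in MSCs and 3 in each line. Calcr was not well above background on any array, and Ocstamp, Dcstamp, Oscar and Nfatc1 had no named probe. The summed level of the 6 was 71.9 for MSCs, 2.67 for COS1NR and 7.44 for MFH1NR. Acp5, the tartrate-resistant phosphatase, was 317-fold and 1136-fold lower, and Ctsk 413-fold and 3.46-fold lower, in COS1NR and MFH1NR. Mmp9 was within 2-fold in COS1NR (past it with spike-in scaling) and 45.0-fold lower in MFH1NR, and Atp6v0d2 was lower by at least 7.83-fold and 8.71-fold. Macrophages and osteoclasts make osteopontin, and their part in the level of Spp1 in MSCs was not tested. Between COS1NR and MFH1NR, where Spp1 was higher in MFH1NR, Acp5 was 3.58-fold higher (under 2-fold with normexp) and Mmp9 23.8-fold higher in COS1NR, and Ctsk was 119-fold lower there. Of the 10 macrophage markers, 5 had a ratio or a bound between the sarcomas. Of these, Cd68 and Aif1 were at least 2-fold higher in COS1NR and none was lower, where 15.0% and 12.4% of all genes were. The part of such cells in the difference of Spp1 between the sarcomas was not tested. A summed level is weighted toward the brightest probes.

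**Figure D5:**
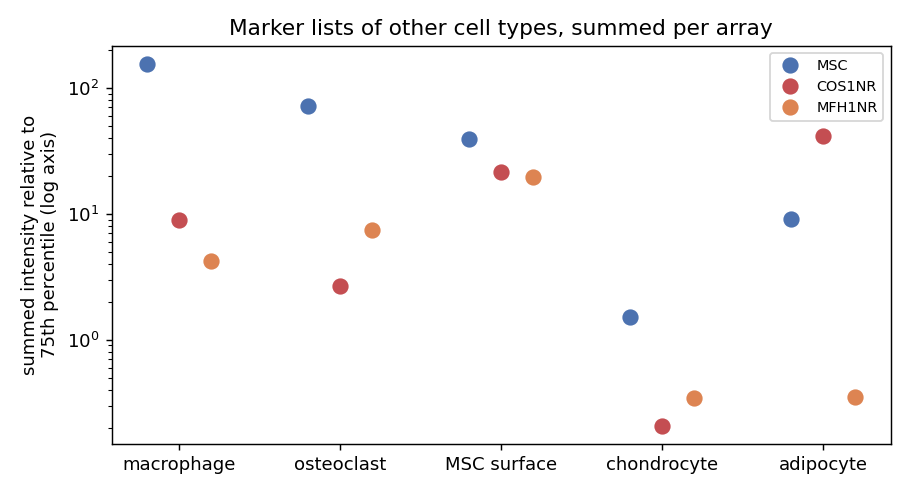
Summed intensity, relative to the 75th percentile of each array, of the markers of 5 cell types (log axis, 1 point per array). MSCs hold the highest sums for macrophage, osteoclast, MSC surface and chondrocyte markers, and COS1NR for adipocyte markers, at 41.2.

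The label of each cell type was set against markers. MSCs had 7 of the 9 members with a named probe well above background, with Sp7 and Phex not among them. The MSC surface markers Nt5e, Eng, Thy1 and Cd44 were well above background in MSCs for 4 of 4, in COS1NR for 2 and in MFH1NR for 3. COS1NR, labelled an osteosarcoma, had 5 of the 9 members with a named probe well above background, with Sp7, Phex, Dmp1 and Pth1r not among them. MFH1NR had 6, Sp7 included, beside the Pth1r spot called an outlier, and Phex and Dmp1 were not among them. These counts are to be read beside the share of all spots well above background. That share was 59.7% for MSCs, 56.6% for COS1NR and 58.2% for MFH1NR.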

How the data were processed

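RNA of cultured bone marrow MSCs and of the COS1NR and MFH1NR lines was measured on 1 Agilent array each. The authors deposited the 1-colour intensity output of Agilent Feature Extraction (version 10.5.1.1 in the file headers, 9.1 in the labels), whose processed intensity has background and spatial trend removed array by array, with no scaling between arrays. The deposited series table held the same intensities for 3 of 3 arrays. Left out were control spots and those the software called outliers for non-uniformity or against their repeats (187, 197 and 217 on the MSC, COS1NR and MFH1NR arrays). Spots of 1 probe were averaged in log2, and no spot was saturated. Between 56.6% and 59.7% of 43379 spots were well above background, and the lowest such intensity was 17.9 (MSCs), 29.4 (COS1NR) and 30.1 (MFH1NR). The number of arrays limits the precision. Probes were named through RefSeq accessions with a GRCr8 gene table (16806 probes). Where a gene had several probes, that with the highest mean of log2 intensity over the 3 arrays was used. The labels name an mRNA isolation kit and call the molecule total RNA.

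With 1 array per cell type no test was made, and genes past 2-fold were counted beside the share over all genes. The members and lists were chosen with earlier results of these data known. Named from each other list are up to 4 genes of largest ratio past 2-fold, and, after their values were seen, Twist1, Fosl2, Cbfb, Col1a1, Col2a1, Matn1, Cd44, Phospho1, the genes around the SIBLING cluster and those that complete a small count. Counts and ratios were recomputed with other scalings, background corrections, probes, filters and thresholds, and, added after the data were seen, with outlier spots kept. Counting was tested on simulated arrays. Scripts ran in Python 3.11.15 (numpy 2.4.6, pandas 2.3.3, matplotlib 3.10.9). Normexp came from limma 3.58.1 under R 4.3.3.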

Additional observations from a re-analysis of the deposited data

Results flagged for a closer look

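Spp1 was at least 2-fold away from MSCs in opposite directions in the sarcomas, with log2 ratios of -1.09 in COS1NR and 1.29 in MFH1NR. The former was -0.70 without scaling, -0.93 with median scaling and -0.95 with quantile normalization, all under 2-fold. Of the adipocyte markers, Fabp4 did so with 5.76 in COS1NR and a bound of -4.11 in MFH1NR, Lpl with 3.25 and a bound of -4.68, and Pparg with 2.84 and a bound of -3.29. With 1 array per cell type these differences between the lines were not tested. Over all genes, 124 were higher in COS1NR and lower in MFH1NR than in MSCs, and 98 the reverse.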

How the results depend on the processing

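No ratio named above changed sign among those at least 2-fold, under any alternative run. Under at least 1 alternative other than the stricter threshold, 4 of 17 member ratios of at least 2-fold came under it, those of Spp1 for COS1NR against MSCs, of Dmp1 for MFH1NR against MSCs, and of Sp7 for MFH1NR against each of the others. Of 104 such ratios of other genes, 19 did. In turn, 1 of 3 member ratios under 2-fold (Dmp1 for COS1NR against MSCs) and 16 of 32 of other genes named came past it under at least 1 alternative. The causes were not tested. The number of members called changed by more than 1.5 times only at a 3-fold threshold, with 1 member higher in MFH1NR than in MSCs and 1 lower in COS1NR than in MFH1NR. For the other bone formation genes, those higher in MFH1NR than in MSCs numbered 7 without scaling, 5 with measured ratios in place of bounds and 1 at 3-fold, and those higher in COS1NR than in MSCs numbered 2 with normexp. At 3-fold, 6 were lower in COS1NR than in MFH1NR. With only genes well above background on all arrays, 11 were lower and 2 higher in COS1NR than in MSCs. In MFH1NR, 8 were lower than in MSCs. Between the sarcomas, 3 were then higher in COS1NR and 7 lower. This filter leaves fewer genes to count, and how many listed genes it leaves is not given here. It keeps 7926 genes of the whole series. Of these, COS1NR lay at least 2-fold below MSCs for 1194 and above them for 1639. MFH1NR lay below MSCs for 1281 and above them for 1495. Set against MFH1NR, COS1NR lay above it for 958 and below it for 767. Without scaling, the median log2 ratio of all genes was 0.50 in COS1NR against MSCs, 0.77 in MFH1NR against MSCs and -0.27 in COS1NR against MFH1NR, and higher genes made up 68.8%, 76.1% and 33.8% of those called, against 50.8%, 47.2% and 54.7% with the 75th percentile. With 7 spike-in probes the medians were -0.16, 0.53 and -0.70 and the shares 36.8%, 69.1% and 16.9%. Median scaling gave medians of 0.27, 0.23 and 0.04, and quantile normalization 0.14, 0.12 and 0.00. The scan as a block was not run, since the MSC array was alone in its scan. No paired analysis was possible because each cell type has 1 array.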

Other observations

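Of 7 adipocyte markers with a named probe, 6 had a ratio or a bound against MSCs in each line. COS1NR was higher in 4 (Fabp4, Lpl, Pparg and Cebpa), where 20.6% of all genes were, and MFH1NR was lower in 4 (Fabp4, Lpl, Pparg and Cfd), where 21.6% were. Between the sarcomas, 5 had a ratio or a bound and COS1NR was higher in 4, where 15.0% of all genes were, with Cebpa within 2-fold. Cebpa, another adipogenic factor, had a log2 ratio of COS1NR to MSCs of 1.25, which was 0.97 with spike-in scaling and 0.82 with normexp. Fabp4, a fatty acid carrier, read 307 in MSCs and 21786 in COS1NR, and at 23.5 was not well above background in MFH1NR. It was 54.1-fold higher in COS1NR than in MSCs and at least 931-fold higher than in MFH1NR. Pparg, the main adipogenic transcription factor, was 7.15-fold and Lpl, lipoprotein lipase, 9.53-fold higher in COS1NR than in MSCs. Cfd (adipsin) was 2.36-fold lower in COS1NR than in MSCs (under 2-fold without scaling) and, dim in MFH1NR, lower there by at least 239-fold, and Adipoq and Lep were not well above background in either line. The summed level of the list was 9.06 for MSCs, 41.2 for COS1NR and 0.35 for MFH1NR.

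The 6 chondrocyte markers with a named probe summed to 1.53 for MSCs, 0.21 for COS1NR and 0.35 for MFH1NR. Acan, the cartilage proteoglycan, was lower than in MSCs by at least 28.6-fold for COS1NR and 36.0-fold for MFH1NR. Comp was lower by at least 7.63-fold in COS1NR and, measured on both arrays, 7.34-fold in MFH1NR. Col2a1, the collagen of cartilage, was within 2-fold of MSCs, at 0.53 (COS1NR) and 0.37 (MFH1NR) in log2, except at 1.13 for MFH1NR without scaling, and with normexp the values were -0.02 and -0.23. Also within 2-fold was Matn1, a cartilage matrix protein, at 0.07 and -0.86. Hapln1, a link protein, was well above background in MFH1NR only, at least 5.67-fold above MSCs. Of the MSC surface markers, Thy1 was at least 124-fold and Eng at least 25.1-fold lower in COS1NR than in MSCs, and Nt5e 8.58-fold lower, while Cd44 had a log2 ratio of -0.57 by the probe used and of -1.93 by its other, dimmer one. In MFH1NR, Eng was lower by at least 31.5-fold and Nt5e by 5.69-fold, and Thy1 (-0.83) and Cd44 (-0.93) were within 2-fold of MSCs, Cd44 with -0.10 by its other probe.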
